A study of Rattus norvegicus with 64 samples.

Results

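The mitochondrial genome encodes 7 subunits of complex I, the NADH dehydrogenase of the respiratory chain. Their mRNAs (Nd1, Nd2, Nd3, Nd4l, Nd4, Nd5 and Nd6) were followed through liver and kidney of rats given bromobenzene. The 7 were taken by transcript ID, whatever their values, from the 31715 transcripts listed in every library, and the names belong to those IDs by the rule that chose them, since the tables themselves carry no gene names. All 7 were measured in all 64 libraries and passed the filters on low counts in both tissues.

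RNA-seq was made from Sprague Dawley rats that received bromobenzene once, at 0.4 g/kg, or the saline vehicle, and liver and kidney were taken 5 h or 10 h later. Each combination of tissue, time and agent had 8 libraries, from 32 rats in all per the series text, with no genetic change and no second agent in any group. The sources used here give neither the age and sex of the rats nor which liver and kidney shared a rat. Libraries were numbered in record order. The kidney records repeat the order of groups of the liver records, but no label states a pairing, and none was used. The p-values measure the spread between these libraries. Bromobenzene is a solvent that liver cytochrome P450 enzymes turn into reactive epoxides, which use up glutathione and bind proteins, and it is used to injure liver and kidney.

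Complex I takes electrons from NADH to ubiquinone and pumps protons across the inner mitochondrial membrane. The mitochondrially encoded subunits form the core of its membrane arm and need many nuclear-encoded partners, and liver and kidney tubules both hold many mitochondria. Mammalian mitochondrial DNA is copied into long precursors that are cut into separate mRNAs, most with short poly(A) tails. All of these complex I genes but Nd6 are read in the same direction, Nd6 lies on the opposite strand, and Nd4l and Nd4 stay together on a shared mRNA. In human cells the ND6 mRNA carries little or no poly(A) tail, and the libraries here were made from RNA enriched for poly(A). How far the tails set the measured levels was not tested.

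The libraries held 13.8 to 28.3 mega-counts (estimated counts, SI prefix) in liver and 16.98 to 24.1 in kidney. Both liver and kidney fell into a lower run of 18 title numbers and a higher run of 14, each holding all 4 groups of the tissue, and the labels do not say whether these runs were batches. No pair of libraries within a group was a duplicate. 2 kidney libraries stood apart. Kidney 5 h vehicle library 4 had a summed level of 12165 TPM over 50 liver-enriched transcripts, against at most 2184 TPM in the other kidney libraries. These 50 were the most abundant liver transcripts with a median kidney level at least 100 times lower than their liver mean, a threshold set after the data were seen. Kidney 5 h bromobenzene library 8 had counts for 21490 transcripts, against at least 22862 in the others. Calls that changed without these libraries are given both ways. Marker genes of hepatocytes, tubules and blood cells could not be matched to the transcript IDs, so the tissue labels were not checked against them. Nor could the nuclear subunits, assembly factors and other mitochondrial mRNAs be matched.

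Together the 7 mRNAs took a median of 1.63% of the estimated counts in liver (range 1.20% to 1.98%, 32 libraries) and 3.83% in kidney (3.06% to 5.14%, 32 libraries). The ranges of the 2 tissues did not overlap. The highest kidney share was that of bromobenzene library 8 at 5 h. The estimated count was whole within 0.001 in all 64 libraries for 6 of the 7 mRNAs, and for Nd4l in 10. In the other 54 libraries the Nd4l count was not whole, since kallisto divides reads that several transcripts share. The library kit marks strand, but the sources used here do not say whether the quantification used it, so Nd6 reads and reads of the precursor running the opposite way cannot be told apart.

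Levels are given as TPM, a transcript's share of the library corrected for its length, so that the 7 can be set side by side. Nd4l and Nd4 are listed as separate transcripts, although they share an mRNA. In vehicle liver, Nd1 (ENSRNOT00000047550.4), whose protein forms part of the ubiquinone channel, had the highest mean level at 5878 TPM ± 498 (SD, n = 16). The proton-pumping, antiporter-like subunits Nd4 (ENSRNOT00000042928.3) and Nd2 (ENSRNOT00000040993.4) followed at 5190 ± 769 and 5027 TPM ± 769. Nd3 (ENSRNOT00000041241.3), a small subunit whose loop moves between the active and resting forms of the enzyme, stood beside them at 4985 TPM ± 689. Below these came Nd4l and Nd6, subunits of the membrane arm close to the ubiquinone site. Nd4l (ENSRNOT00000044582.3) had 3683 TPM ± 1104 and Nd6 (ENSRNOT00000051268.3) 3559 TPM ± 396. Nd5 (ENSRNOT00000048767.3), the outermost pump of the membrane arm, was lowest at 1472 TPM ± 417.

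In vehicle kidney the order was different at the top, and Nd5 was again lowest. Nd2 led at 12991 TPM ± 1595 (SD, n = 16), with Nd3 at 11993 ± 950, Nd1 at 11944 ± 745 and Nd4 at 11380 TPM ± 704. Nd6 had 8905 ± 1068 and Nd4l 8327 TPM ± 1084, and Nd5 had 3802 TPM ± 410. Of the 6 neighbouring pairs in each tissue's order, 5 had overlapping ranges over the 16 vehicle libraries, and only the step down to Nd5 separated. Some overlapping neighbours still kept their order inside the libraries. Nd1 was above Nd4 in 15 of 16 vehicle libraries of each tissue, whereas Nd2 was above Nd3 in 7 of 16 liver libraries. TPM of the short members rests on short effective lengths, which for Nd4l ranged from 97.7 to 131 nt between liver libraries.

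**Figure D1:**
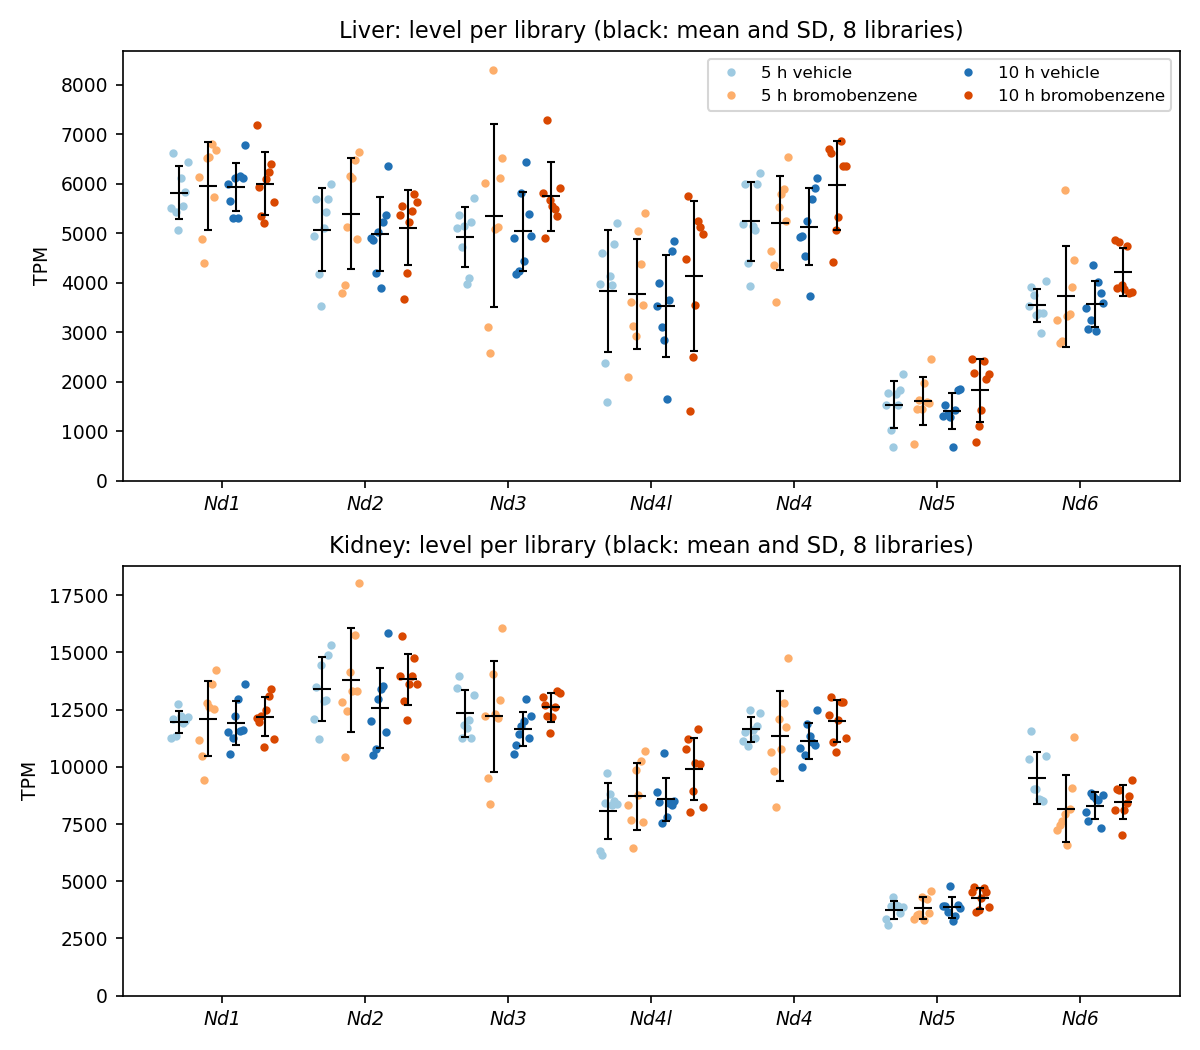
Level (TPM) of each complex I mRNA in every library of liver (top) and kidney (bottom), with the mean and SD of each group of 8 in black; the vertical scales of the panels differ. Vehicle and bromobenzene libraries overlap for every mRNA in both tissues and at both times, and Nd5 is lowest throughout.

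All 7 mRNAs were more abundant in kidney than in liver. The mean TPM in vehicle kidney was 2.01 to 2.74 times that in vehicle liver, over the 7 mRNAs and both times, and in none of these 14 comparisons did the 8 liver and 8 kidney libraries overlap. How many of all transcripts were free of overlap was not counted. Most transcripts were lower in liver on this scale: limma on log2(TPM + 1) called 10070 of 14129 lower at 5 h and 10580 of 14008 at 10 h. At 5 h, Nd2 ranged from 3531 (median 5270) to 5991 TPM in liver and from 11236 (median 13212) to 15311 TPM in kidney. At 10 h, Nd5 ranged from 677 (median 1385) to 1854 TPM in liver and from 3282 (median 3877) to 4788 TPM in kidney. For both mRNAs the lowest kidney library thus lay well above the highest liver library.

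The count test set the organs on a common scale and gave smaller differences. It was edgeR's quasi-likelihood test on estimated counts with TMM scaling, which aligns libraries on the bulk of their transcripts, with Benjamini-Hochberg adjustment over all transcripts tested and a call at an adjusted p under 0.05. At 5 h, 6 of the 7 mRNAs were called lower in liver, where 71.2% of all transcripts tested were called in either direction and 36.7% were called lower in liver. At 10 h, 7 of 7 were called lower in liver, where 74.5% of transcripts were called and 39% were called lower. For Nd2 the log2 difference, liver minus kidney, was -0.66 at 5 h (SE 0.14) with an edgeR adjusted p of 9.17e-05, and -0.50 at 10 h (SE 0.10) with an edgeR adjusted p of 3.88e-05. Nd6 stood at -0.67 (SE 0.16, edgeR adjusted p = 0.000498) at 5 h and Nd5 at -0.62 (SE 0.17, edgeR adjusted p = 0.00144) at 10 h. The exception at 5 h was Nd4l, with -0.34 (SE 0.19, edgeR adjusted p = 0.107). Some calls rested on the settings. At 5 h, Nd1 at -0.29 (edgeR adjusted p = 0.0204) was no longer called without the 2 kidney libraries that stood apart, at -0.25 (edgeR adjusted p = 0.0603), so that 5 of 7 were called. That refit called 9915 of 14069 transcripts, 5049 of them lower in liver. Keeping low-count transcripts left 5 of 7 called at 5 h with no filter, without Nd1 and Nd4l, and 4 of 7 with filterByExpr, without Nd4 as well. Of all transcripts, 15660 of 28099 were then called with no filter (8752 lower in liver) and 14211 of 19981 with filterByExpr (7561 lower). At 10 h either of these filters left 4 of 7, without Nd1, Nd4l and Nd4. Over all transcripts the calls were 16308 of 28162 with no filter (9319 lower) and 14761 of 19989 with filterByExpr (8199 lower). Nd1 was also not called at 10 h by DESeq2 (-0.13, adjusted p = 0.081), nor by edgeR with DESeq2 size factors (-0.13, edgeR adjusted p = 0.121). With only the 16 libraries of the contrast it was not called either (-0.14, edgeR adjusted p = 0.116). Since 32 rats gave 64 libraries, livers and kidneys came from the same animals, but the organ tests treat all libraries as separate animals. In bulk tissue, fewer cells of a type and less RNA per cell cannot be told apart.

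The size of the organ difference depended on the scale. With library totals alone, the 7 log2 differences (liver minus kidney) ran from -1.58 to -1.20 at 5 h, and the median of all transcripts moved with them, from -0.02 to -0.93. Relative to that median the members ran from -0.64 to -0.26, against -0.65 to -0.27 under TMM. Of all transcripts at 5 h, 4879 were called higher and 5180 lower in liver under TMM, against 1744 and 10686 with library totals. At 10 h the same counts were 4979 and 5459, against 1897 and 10262, and the median of all transcripts was -0.04 against -0.82. The 10 most abundant transcripts of each library took 20.01% to 24.5% of liver counts and 13.2% to 18.99% of kidney counts. All 7 differences were negative under every scaling and filter tried, but at 10 h Nd1 and Nd4 lay above the median of all transcripts with no filter on low counts, at -0.07 and -0.18 against -0.21, and Nd1 did so under filterByExpr, at -0.05 against -0.14. Under TMM Nd1 had the smallest difference at 10 h, -0.17 (SE 0.07, edgeR adjusted p = 0.0415).

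**Figure D2:**
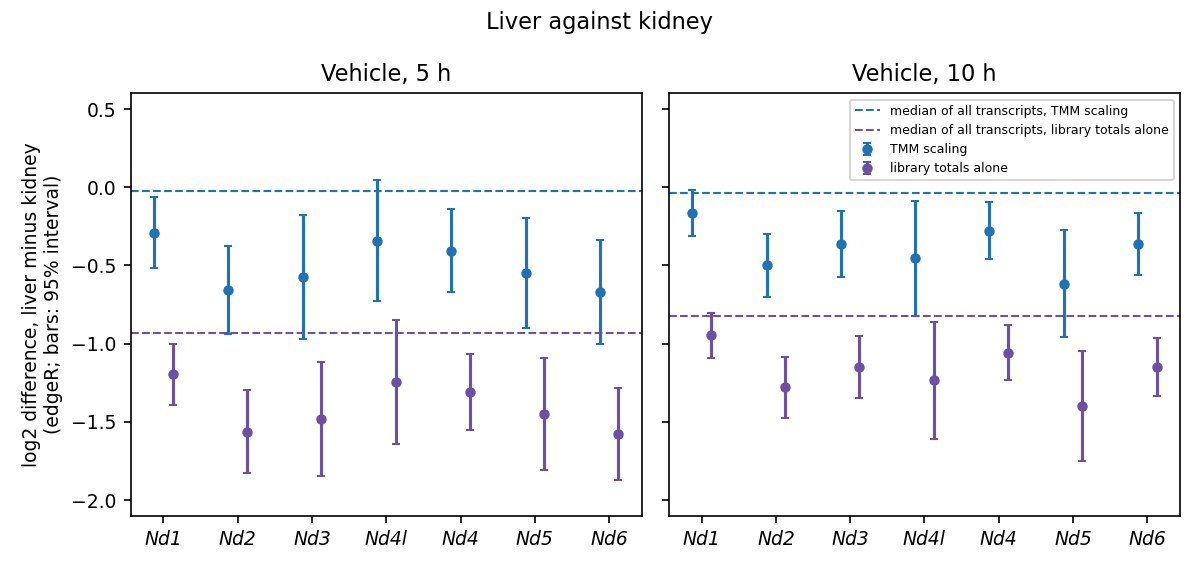
Log2 difference in level between vehicle liver and vehicle kidney for each complex I mRNA (points, with 95% intervals from edgeR) at 5 h and 10 h, under TMM scaling and with library totals alone; dashed lines are the median of all transcripts tested under each scaling. All points lie below 0 and below the dashed line of their own scaling, by up to 0.65 at 5 h.

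Bromobenzene did not bring any of the 7 mRNAs past the threshold in liver. At 5 h, 0 of 7 were called, with 2.78% of all transcripts called, and at 10 h, 0 of 7 with 11.2% called. At an unadjusted edgeR p under 0.05 there were also 0 of 7 at each time, against 2286 of all 17535 transcripts at 5 h and 4236 at 10 h. DESeq2 called 0 of 7 as well, with 707 of 17535 transcripts called at 5 h and 2408 at 10 h. So did limma on TPM, with 435 and 1992 called on log2(TPM + 1). The treated and vehicle libraries overlapped for each mRNA in both tissues and at both times, 28 of 28 combinations.

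Nd5 had the largest change in liver. At 10 h its level was 677 to 1854 TPM (median 1385) in vehicle liver and 793 to 2462 TPM (median 2103) in bromobenzene liver. The treated group thus reached higher, with 6 of 8 libraries above the vehicle median, but its lowest libraries sat inside the vehicle range. The log2 change was 0.29 (SE 0.22, edgeR adjusted p = 0.465). The 95% interval spanned a fold of 0.895 to 1.68.

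The opposite-strand Nd6 showed the most uniform shift in liver at 10 h. All 8 bromobenzene libraries, at 3794 to 4858 TPM (median 3923), were above the vehicle median of 3538 TPM, and the vehicle range of 3036 to 4361 TPM overlapped them. The log2 change in the count test was 0.17 (SE 0.15, edgeR adjusted p = 0.55). For Nd3, 7 of 8 treated libraries were above the vehicle median, with a log2 change of 0.15 (SE 0.19, edgeR adjusted p = 0.713). Over the 7 mRNAs the changes at 10 h ran from -0.05 for Nd1 to 0.29 for Nd5, with a median of 0.14, where the median of all transcripts was 0.01.

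At 5 h the liver changes ran from 0.00 for Nd4l to 0.18 for Nd3, with a median of 0.14 against 0.00 over all transcripts, and edgeR's adjusted p was 0.709 to 0.999. The 95% intervals were widest for Nd4l, with folds of 0.714 to 1.4, and Nd5, with 0.803 to 1.51. They were narrowest for Nd1, with 0.936 to 1.22. Nd3 spread most in the treated group at 5 h, from 2589 through a median of 5575 to 8309 TPM, and these libraries lay on both sides of the vehicle range of 3984 to 5711 TPM. Within the lower run of title numbers, which held 2 treated and 5 vehicle livers at 5 h, the 7 log2 changes were -0.32 to -0.08. Within the higher run, with 6 treated and 3 vehicle livers, they were -0.17 to 0.30. None was called in either run, where 0 of 18363 transcripts were called in the lower run and 13 of 18491 in the higher. With so few calls over all transcripts, the lack of a call says little about the 7.

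In kidney, bromobenzene brought 0 of 7 mRNAs past the threshold at 5 h, with 0.375% of all transcripts called, and 0 of 7 at 10 h, with 0.625% called. DESeq2 called 0 of 7 at both times, with 384 of 20004 transcripts called at 5 h and 332 at 10 h. So did limma on TPM, with 25 and 219 called on log2(TPM + 1). At an unadjusted edgeR p under 0.05 there was 1 of 7 at 5 h, Nd6, against 2806 of all 20004 transcripts. That 1 of 7 is close to the share of all transcripts. At 10 h there were 2 of 7, Nd4l and Nd5, against 2025 of 20004.

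Nd6 in kidney at 5 h depended on 1 library. Its level was 8522 to 11547 TPM (median 9020) with vehicle and 6580 to 11303 TPM (median 7786) with bromobenzene. Of the 8 treated libraries, 6 lay below the whole vehicle range, and the highest was library 8, the one with the fewest transcripts. The log2 change was -0.25 (SE 0.10, edgeR adjusted p = 0.253). Without library 8 the highest treated value was 9076 TPM, and the change was called at -0.35 (edgeR adjusted p = 0.0340). Without library 8 and vehicle library 4 it was -0.36 (edgeR adjusted p = 0.0440). Calls over all transcripts rose as well, to 360 of 20099 without these 2 libraries, from 75 of 20004 with all libraries. The other 6 mRNAs had changes between -0.06 and 0.06 at 5 h with all libraries in the test. In the lower run of title numbers, with 2 treated and 5 vehicle kidneys, the 7 changes were -0.49 to -0.07. In the higher run, with 6 treated and 3 vehicle kidneys, they were -0.11 to 0.08.

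At 10 h all 7 kidney mRNAs had a positive but uncalled log2 change, from 0.08 for Nd1 to 0.27 for Nd4l, with a median of 0.18, where the median of all transcripts was 0.00. Nd4l was 7529 to 10617 TPM (median 8451) with vehicle and 8014 to 11633 TPM (median 10127) with bromobenzene. The groups overlapped, and 6 of 8 treated libraries were above the vehicle median. Its change was 0.27 (SE 0.11, edgeR adjusted p = 0.329), with a 95% interval spanning folds of 1.04 to 1.41. Nd5 had 0.19 (SE 0.09, edgeR adjusted p = 0.421). Nd2, Nd3 and Nd4 each had 7 of 8 treated libraries above the vehicle median, with changes of 0.19, 0.18 and 0.16. The changes were positive within both runs of title numbers, 0.03 to 0.26 in each, and none was called. Over all transcripts the lower run called 36 of 20894 and the higher run 0 of 20765, so the lack of a call there says little. The 95% intervals of the 7 mRNAs together spanned folds of 0.922 to 1.41.

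**Figure D3:**
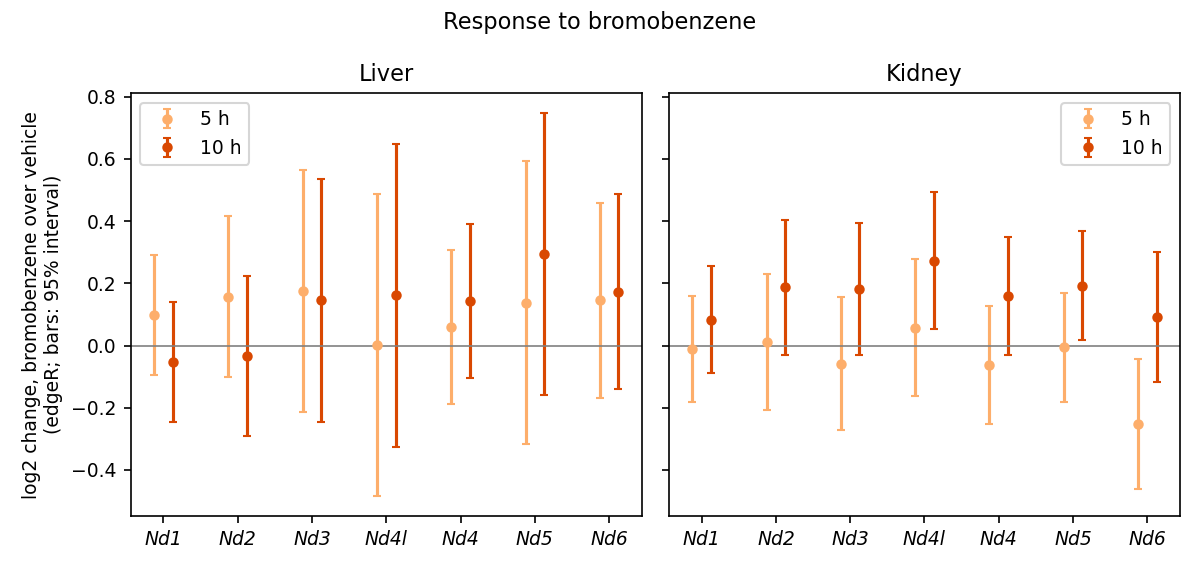
Log2 change of each complex I mRNA with bromobenzene over vehicle (points, with 95% intervals from edgeR) at 5 h and 10 h, in liver (left) and kidney (right), 8 libraries a group. Most intervals cross 0; those of Nd6 in kidney at 5 h and of Nd4l and Nd5 in kidney at 10 h do not, and none of the 28 changes was called after adjustment.

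The responses at 10 h and at 5 h were set against each other directly in the same fit. In liver 0 of 7 differences were called, with 3.46% of transcripts called. There, 0 of 7 had an unadjusted p under 0.05 in edgeR, against 2825 of all 17535 transcripts. In kidney 0 of 7 were called, with 0.135% of transcripts called. All 7 kidney differences were positive, from 0.10 to 0.34, and the largest was that of Nd6 (SE 0.14, edgeR adjusted p = 0.42). That of Nd6 was the 1 difference with an unadjusted edgeR p under 0.05, against 1923 of all 20004 transcripts. The response of liver less that of kidney was called for 0 of 7 mRNAs at 5 h, with 0.991% of transcripts called. At 10 h it was called for 0 of 7, with 8.07% called. No unadjusted edgeR p of the 7 was under 0.05, against 1699 of 14129 transcripts at 5 h and 3022 of 14008 at 10 h.

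Between the vehicle groups, 10 h and 5 h liver differed in 0 of 7 mRNAs, with 9.32% of transcripts called, and the log2 differences ran from -0.13 to 0.03. In kidney 0 of 7 were called, with 5.68% of transcripts called, and the log2 differences ran from -0.30 to -0.02. Those of Nd4l and Nd5, at -0.02 and -0.04, were positive on the TPM scale, at 0.09 and 0.04 in limma. Nd6 was 8522 to 11547 TPM (median 9020) at 5 h and 7310 to 8848 TPM (median 8580) at 10 h. The vehicle kidneys at 5 h thus overlapped those at 10 h, and the 10 h median lay inside the 5 h range. The log2 difference was -0.30 (SE 0.10, edgeR adjusted p = 0.0842). DESeq2 called it (-0.30, adjusted p = 0.0427), and so did edgeR without bromobenzene library 8 at 5 h (-0.31, adjusted p = 0.0300). Without that library and vehicle library 4 at 5 h, edgeR called it too (-0.30, edgeR adjusted p = 0.0418). That refit called 1242 of 20099 transcripts. Over all 20004 transcripts DESeq2 called 1537, against 1137 in edgeR with all libraries. The vehicle libraries at each time are also the controls of the bromobenzene comparison at that time.

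The 7 mRNAs did not vary by the same amount from library to library. The pooled SD within groups, on the log2(TPM + 1) scale, was 0.56 for Nd4l and 0.53 for Nd5 in liver, 0.33 for Nd3 and 0.16 for Nd1. In kidney it was 0.13 to 0.21 for all 7. Liver thus held the most variable members, Nd4l and Nd5, beside a steady Nd1, while the kidney members spread alike. Nd4 in liver had 0.24, although Nd4l and Nd4 share an mRNA. The ratio of Nd4l to Nd4 TPM ran from 0.318 to 0.870 in liver (median 0.766) and from 0.533 to 0.906 in kidney (median 0.776). The levels and spreads of Nd4l and Nd4 are therefore not those of 2 separate mRNAs, and the cause of the varying ratio was not tested.

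Most members moved together from library to library within the groups. Deviations from the group mean were correlated over the 32 libraries of a tissue for all 42 pairs (21 a tissue), with permutation within groups and Benjamini-Hochberg adjustment over the 42. The adjusted p of Pearson's r was under 0.05 for 15 of 21 pairs in liver and 15 of 21 in kidney. The pairs described were picked after the values were seen, and TPM of one library share a sum. In liver Nd4l and Nd5 had Pearson's r = 0.96 and Spearman's rho = 0.93 (permutation p = 1e-05 for each, the smallest that the permutations can give, adjusted 4.2e-05 and 3.5e-05). This was the highest r of the 21 liver pairs. Nd3 and Nd6, the seventh highest, had r = 0.81 and rho = 0.73 (permutation p = 2e-05 and 3e-05, adjusted 7e-05 and 9.69e-05). The pumps Nd2 and Nd4 went with Nd5 as well, with r = 0.85 and 0.81 and rho = 0.74 and 0.82 (permutation p = 1e-05 for each, adjusted 4.2e-05 and 3.5e-05). Other pairs had lower values. Nd3 and Nd5 had r = -0.07 and rho = 0.00 (permutation p = 0.71 and 0.983, adjusted 0.745 and 0.983), and Nd4l and Nd6 had r = 0.03 and rho = 0.13 (permutation p = 0.859 and 0.485, adjusted 0.859 and 0.565).

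In kidney the highest r was that of Nd1 and Nd4. Nd4l and Nd5 had r = 0.85 and rho = 0.86 (permutation p = 1e-05 for each, adjusted 4.2e-05 and 3.5e-05), and Nd3 and Nd6 had r = 0.62 and rho = 0.66 (permutation p = 0.00318 and 0.00029, adjusted 0.00636 and 0.000812). Nd3 and Nd5 had r = 0.17 and rho = 0.02 (permutation p = 0.43 and 0.934, adjusted 0.488 and 0.957). Nd2 and Nd5 had r = 0.40 and rho = 0.41 in kidney (permutation p = 0.0373 and 0.0275, adjusted 0.0506 and 0.0444), below their liver values, a difference that was not tested. Nd1 and Nd4 had r = 0.84 in liver and 0.91 in kidney, with rho = 0.81 and 0.85 (permutation p = 1e-05 for each, adjusted 4.2e-05 and 3.5e-05).

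Leaving out the 2 libraries farthest from the median of the first-named mRNA gave r = 0.94 for Nd4l and Nd5 and 0.80 for Nd3 and Nd6 in liver, and 0.86 and 0.59 in kidney. For Nd1 and Nd4 it gave 0.79 in liver and 0.86 in kidney, and for Nd3 and Nd5 it gave -0.10 and -0.05. The value of Nd3 and Nd5 depended on the libraries and the scale: it was -0.39 in the lower run of title numbers and 0.16 in the higher run in liver, and -0.34 and 0.50 in kidney. On log2 CPM with TMM scaling it was -0.02 in liver and 0.40 in kidney (permutation p = 0.93 and 0.0589). Within the lower run of title numbers r was 0.97 for Nd4l and Nd5 and 0.74 for Nd3 and Nd6 in liver, and 0.91 and 0.60 in kidney. Within the higher run it was 0.84 and 0.85 in liver and 0.76 and 0.59 in kidney. The last of these, for Nd3 and Nd6 over 14 kidney libraries, had a permutation p of 0.129. Without the 2 kidney libraries that stood apart, that pair had r = 0.47 (permutation p = 0.0156, 30 libraries).

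**Figure D4:**
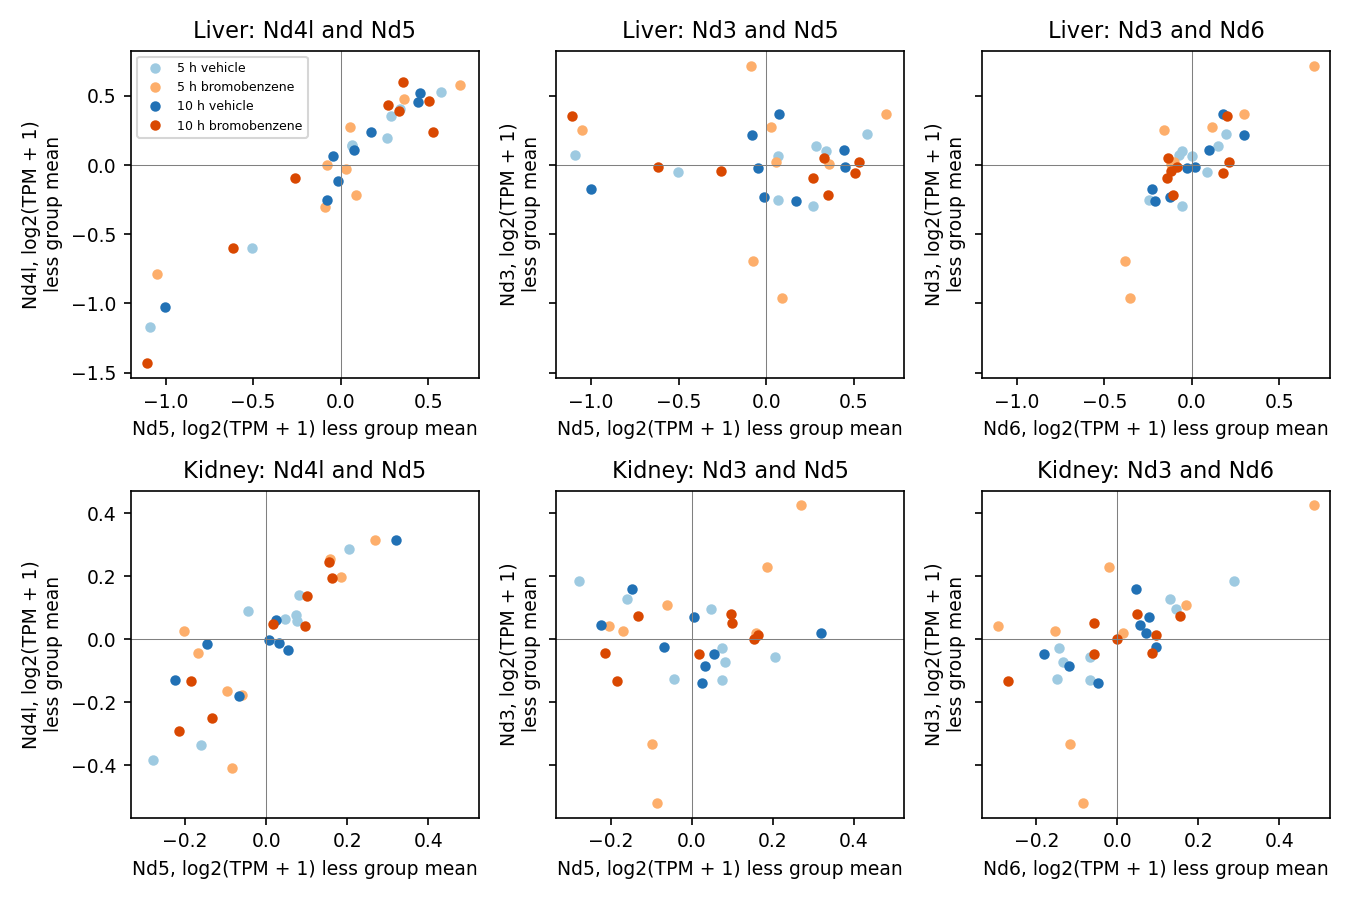
Deviation from the group mean in log2(TPM + 1) for 3 pairs of complex I mRNAs, each point 1 library, in liver (top) and kidney (bottom); axis ranges differ between the tissues. Nd4l and Nd5 lie along a line in both tissues (r = 0.96 and 0.85), Nd3 and Nd6 do so more loosely (r = 0.81 and 0.62), and Nd3 and Nd5 are more scattered (r = -0.07 and 0.17).

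The ratio of Nd3 to Nd5 TPM was taken in each library, a pair chosen after the values were seen. It ran from 1.58 to 9.20 over the 32 liver libraries (median 2.98) and from 2.34 to 4.55 over the 32 kidney libraries (median 3.08). By group the liver ratio was 2.28 to 7.55 (median 2.94) in vehicle and 1.58 to 8.12 (median 2.93) in bromobenzene libraries at 5 h. At 10 h it was 2.67 to 6.56 (median 3.45) and 2.25 to 9.20 (median 2.68). A few livers in each of the 4 groups reached high ratios, and the tops of the ranges lay farther apart than the medians.

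The 9 livers with the highest ratios, 4.52 to 9.20, all had fewer transcripts with counts than the liver median of 21096, from 20316 to 21071, as had 16 of the 32 livers in all. The cut at 9 was set by the values, at the point where this run ended. The next liver, bromobenzene library 7 at 5 h with a ratio of 3.90, had 21261. Of these 9, 8 were in the lower run of title numbers, which held 18 of the 32 livers. Livers of the lower run also had fewer transcripts with counts, with a median of 20905.5 against 21255.5 in the higher run. Run and transcript number thus went together, and these are not 2 separate findings. Bromobenzene library 3 at 10 h had the highest ratio, 9.20, and the fewest transcripts with counts, 20316. Vehicle library 4 at 5 h, with 7.55, had the next fewest, 20418. Bromobenzene library 1 at 5 h, with 8.12, had 21071 transcripts with counts and the longest fragments by effective length (234 nt, liver median 207). Other livers went the other way. Bromobenzene library 1 at 10 h had only 20630 transcripts with counts, but a ratio of 2.36. Bromobenzene library 8 at 10 h had fragments of 231 nt, but a ratio of 2.75. Over the 18 livers of the lower run of title numbers the mean ratio was 4.39 ± 2.15 (SD), and over the 14 of the higher run it was 2.93 ± 0.95. The part of these in the ratio was not tested.

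**Figure D5:**
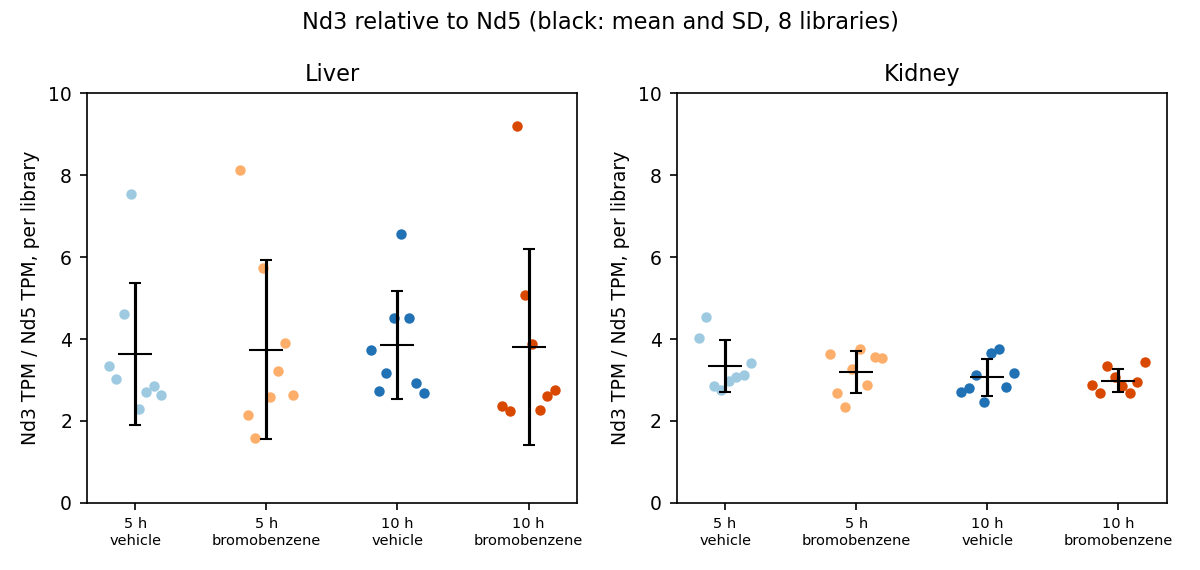
Ratio of Nd3 to Nd5 TPM in each library, by group, with the mean and SD of 8 libraries in black, for liver (left) and kidney (right) on the same scale. Liver ratios reach 9.20 and kidney ratios 4.55, and the high livers are spread over all 4 groups.

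The transcripts that most resembled the mean of the 7 were sought among all others with a mean of at least 10 TPM in the tissue, by Pearson's r of deviations from the group mean over 32 libraries. In liver they were ENSRNOT00000046201.3 (r = 0.93, mean level 9573 TPM) and ENSRNOT00000042098.3 (r = 0.88, mean level 7014 TPM), among 5949 candidates with a median r of -0.05. In kidney they were ENSRNOT00000046108.3 (r = 0.80, mean level 40228 TPM) and again ENSRNOT00000046201.3 (r = 0.78, mean level 25580 TPM), among 8477 candidates with a median r of -0.24. These values describe the same libraries, whose TPM share a sum, and the sources used here do not pair these IDs with names.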

How the data were processed

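Poly-A-enriched, stranded libraries were sequenced as read pairs of 150 nt, per the labels' protocols; these describe RNA from cell culture, and the tissue labels were followed instead. The submitters' processing notes name kallisto 0.42.4 for quantification and the build Rnor_6.0. The authors deposited estimated counts, unnormalized, with reads shared by several transcripts divided among them. The TPM values deposited by the authors are corrected for effective length and scaled to a fixed sum per library. The sources used here do not give the annotation release, trimming, filters or strand setting.

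Estimated counts were rounded and tested per transcript with edgeR 4.0.16 in R 4.3.3 (TMM, robust glmQLFit and glmQLFTest), with Benjamini-Hochberg adjustment over all transcripts tested and a threshold of 0.05. The 4 groups of a tissue shared a fit of 32 libraries after filterByExpr (minimum count 10, minimum total 15). Organs were compared in a fit of the 32 libraries of a time, over transcripts with a mean of at least 1 CPM (counts scaled to a common library size, computed here) in each tissue. Intervals are 95% from the fitted SE. Correlations used log2(TPM + 1) and 100000 permutations. Alternatives were DESeq2 1.42.0, limma 3.58.1 on log2(TPM + 1) and log2(TPM + 0.1), other scalings and filters, the title-number runs, and libraries left out. The edgeR step was tested on simulated counts.

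The 7 mRNAs, the lists and the tests were chosen with earlier results of these data known. All 7 mRNAs are named, and the 2 transcripts a tissue most like them are given by the rule stated with them. No reference used here pairs the transcript IDs with names, so lists of nuclear subunits, assembly factors, other mitochondrial mRNAs and cell type markers were not tested, and neither sequences nor coordinates are printed. With an estimated count of at least 2750 for each mRNA in each library, the spread between libraries, rather than counting error, limits the precision.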

Additional observations from a re-analysis of the deposited data

Results flagged for a closer look

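Among 88 sets of 8 libraries (levels of the 7 mRNAs and other quantities per library, among them ratios between the mRNAs, by group), 6 held a library whose gap to the nearest of the others exceeded 0.526 of the whole range, the 95% critical value of Dixon's test for 8 values. At that level chance alone marks about 1 set in 20, and the sets are not independent. In liver at 10 h, bromobenzene library 3 had 7296 TPM of Nd3, against 4908 to 5907 TPM in the other 7. The same library had a ratio of Nd3 to Nd5 of 9.20, against 2.25 to 5.09, and a ratio of Nd6 to Nd5 of 6.08, against 1.77 to 3.55. In liver at 5 h, vehicle library 4 had a ratio of Nd3 to Nd5 of 7.55, against 2.28 to 4.61. In kidney at 10 h, vehicle library 4 had 10617 TPM of Nd4l, against 7529 to 8901 TPM, and 4788 TPM of Nd5, against 3282 to 3983 TPM.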

How the results depend on the processing

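Of 2639 alternative values for the 84 log2 changes of single mRNAs, 2618 kept their side of the threshold, 13 lost a call, 8 gained one and 0 turned a called direction; 118 values of uncalled changes, in 25 results, had the opposite sign. The 13 lost calls were organ differences of Nd1, Nd4 or Nd4l, and 7 of 7 organ calls at 10 h became 4 with no filter on low counts and 4 with filterByExpr; the 6 calls at 5 h became 5 and 4, and 5 without the 2 kidney libraries that stood apart. Of 0 bromobenzene calls in kidney at 5 h, 1 (Nd6) was gained without vehicle library 4 and bromobenzene library 8 together, and leaving libraries out singly gave 0 to 1, the 1 being without bromobenzene library 8. With the 2 left out together, calls over all transcripts rose from 75 of 20004 to 360 of 20099. For vehicle kidney at 10 h against 5 h, 1 (Nd6) was gained with DESeq2 and 1 without those libraries together, and leaving libraries out singly gave 0 to 1. The liver and the 10 h kidney bromobenzene comparisons stayed at 0 of 7 under all alternatives run. Some of these alternatives, such as the title-number runs in kidney at 10 h, called few transcripts of any kind or none. The causes were not tested. The runs of title numbers, the correlation alternatives and the threshold for liver-enriched transcripts were chosen after seeing the data. No paired analysis was made because the labels give the groups no shared replicate numbers and do not say which liver and kidney shared a rat. Levels of the short Nd4l and Nd3 in TPM rest on the effective lengths estimated for each library.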
